A study of Homo sapiens with 6 samples.

Results

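OLR1 encodes the lectin-like oxidized LDL receptor LOX-1. It was selected on the measured difference described here, a fall of about 3-fold between the groups, as 1 gene of the 22354 loci in the deposited count table, of which 14860 passed the filter on low counts. Its levels and fold change are therefore a description, and no test is given for it. The RNA-seq libraries came from HTori-3.1, an established human line of normal thyroid cells, and the question addressed was how expression differs after loss of the circadian transcription factor BMAL1. There were 3 control libraries of wild type genotype and 3 libraries labelled BMAL1 knockout. All 6 had been exposed to 2 µM etoposide, a topoisomerase inhibitor used to induce senescence, so that no library shows the cells without it. The duration was given as 24 h in the methods and as 12 h in the treatment label. The knockout was made by lentiviral Cas9 and sgRNA with puromycin selection and picking of single clones. The number of clones behind the 3 libraries was not stated, so that an effect of the clone and an effect of the genotype cannot be told apart. The labels also described siRNA transfection, without tying it to a library. Nothing stated that the libraries came from separate cultures, and the p-values given for other genes measure the spread between these samples, which may be technical.

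The control libraries held 26893063, 27029060 and 28513703 counts. Those labelled BMAL1 knockout held 43148059, 29860233 and 43563391. Replicate 1 of the latter stood apart from its own group. The chi-square per locus between its counts and those of replicates 2 and 3 was 29.2 and 42.3, compared with 7.09 between replicates 2 and 3 and 5.21 to 13.8 among the control libraries. None of these 6 pairs within a group differed by as little as counting alone would give, which is a value near 1 per locus.

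The targeted gene was examined first. BMAL1 had 11.3, 12.2 and 14.6 CPM (each gene's share of the library's counts, scaled to a common total by the TMM method) in the control libraries and 17.9, 19.8 and 19.4 CPM in those labelled knockout. All 3 labelled knockout libraries were above all 3 controls, so the transcript was not lower where the label says the gene was disrupted. The log2 fold change was 0.58 (SE 0.11, Benjamini-Hochberg adjusted p = 0.0204, edgeR quasi-likelihood test). That call was lost in 4 of the 6 fits leaving out 1 library, those without control replicate 1 or 2 or without replicate 2 or 3 of the libraries labelled knockout, with adjusted p between 0.0598 and 0.113. An edited gene can still be transcribed, and the counts cannot show whether protein was made. The protocol describes a western blot of the selected clones. The paper presents blots of BMAL1 in control and knockout lines to show knockout efficiency, and they are not analysed here. Because the transcript of the target was higher and the protein was not measured here, the group is called the libraries labelled BMAL1 knockout throughout. Directions are given relative to that label.

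The labelled tissue was checked against its markers. PAX8, a transcription factor of thyroid follicular cells, averaged 133 CPM in the controls and 110 CPM in the libraries labelled knockout, and FOXE1, another, had 47.5, 47.7 and 48.8 CPM and 36.2, 42.1 and 41.6 CPM. The genes of hormone production were near the limit of detection, with 44 counts in all 6 libraries together for TG, 12 for TSHR and 26 for SLC5A5. NKX2-1 had 0 counts, which allows up to 0.0151 CPM over the 6 libraries (3 counts, counting error only). Of 9 thyroid markers, 2 reached a mean of 1 CPM. The epithelial keratins KRT8 and KRT18 were abundant, at 1410 and 852 CPM in the controls.

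LOX-1 is a C-type lectin-like scavenger receptor of the cell surface that binds oxidized LDL and several other ligands. It is best known from endothelial cells, macrophages and smooth muscle cells, where inflammatory cytokines and oxidized LDL itself induce it, and proteases shed its extracellular part. Signals from the receptor reach NADPH oxidase, small GTPases and NF-kappaB. OLR1 lies among other lectin-like receptor genes in the natural killer gene complex.

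In GENCODE v44 (hg38), OLR1 (ENSG00000173391.9) spans positions 10158301 to 10172138 of chromosome 12 on the minus strand. Its 11 transcripts merge into 9 exons with 3057 bases in all, of which the last exon holds 1721. The gene body shares 1597 bases with TMEM52B on the opposite strand, but no exon bases are shared. The counting was not stated to use strand, and the annotation behind the deposited counts was not given in the sources used here, so reads of the 2 genes could be confused where another gene model extends further.

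OLR1 had 857, 848 and 1017 counts in the control libraries. In the libraries labelled BMAL1 knockout it had 383, 360 and 524 counts, although 2 of these libraries were the deepest of the 6. Scaled for depth, the control libraries stood at 31.9, 31.7 and 36.3 CPM and the libraries labelled knockout at 8.97, 11.8 and 11.8 CPM. Every control library was above every library labelled knockout, with a wide gap between the groups. The means were 33.3 ± 2.59 CPM (SD, n = 3) in controls and 10.9 ± 1.64 CPM (SD, n = 3) in the libraries labelled knockout. The fitted log2 fold change was -1.62 (SE 0.12), a 3.07-fold difference that left 32.5% of the control level. Over the 9 pairs of a control and a labelled knockout library the ratio lay between 2.68 and 4.05. In these bulk libraries, fewer cells expressing a gene and less RNA per cell cannot be told apart.

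**Figure D1:**
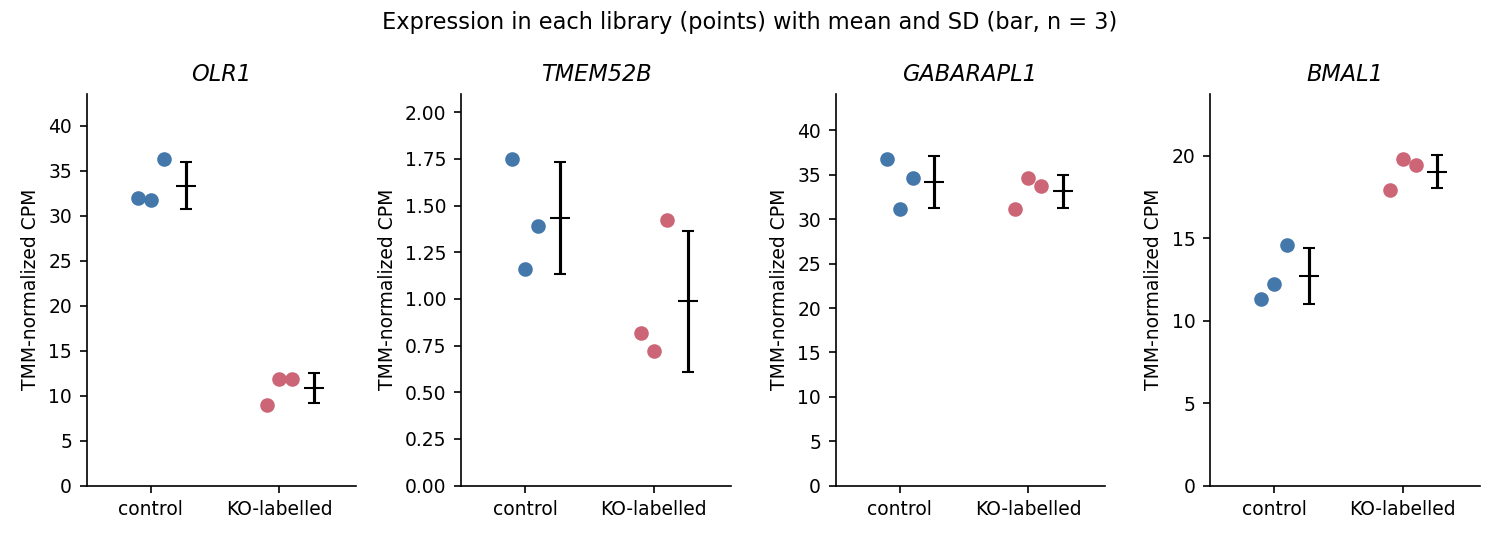
TMM-normalized CPM of OLR1, of TMEM52B and GABARAPL1 beside it on chromosome 12, and of BMAL1 in each library (points; blue, control; red, labelled BMAL1 knockout), with the mean and SD (n = 3). OLR1 lies at 31.7 CPM or above in the controls and at 11.8 CPM or below in the others, whereas the groups overlap for TMEM52B and GABARAPL1 and BMAL1 is higher in the libraries labelled knockout.

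The spread of OLR1 between replicates was larger than counting error. The coefficient of variation was 7.78% among controls and 15.1% among libraries labelled knockout, while counting alone gives between 3.14% and 5.27% per library. The highest and lowest libraries differed 1.15-fold in the controls and 1.32-fold in the other group. The lowest value, 8.97 CPM, belonged to replicate 1 of the libraries labelled knockout, the library that stood apart. Without it the log2 fold change of OLR1 was -1.50, the smallest among the 14 alternatives tried, which reached -1.69.

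Judged against genes of similar abundance, OLR1 was near the extreme. A total of 4096 named genes had a mean within 2 times that of OLR1 (22.1 CPM), from 11.1 to 44.2 CPM. Their median log2 fold change was 0.02, and the central 95% of them lay between -0.35 and 0.41. OLR1 ranked 2 from the most lowered, and 2 other genes moved as far in either direction. It ranked 3 without replicate 1 of the libraries labelled knockout, and 4 among the 7719 genes within 4 times of its abundance. It ranked 11 when all 12479 named genes averaging 1 CPM or more were compared.

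The gene lowered further was SERPINB2, an inhibitor of plasminogen activators, picked out after its values were seen. SERPINB2 had 24.7, 23.2 and 27.4 CPM in controls and 6.47, 4.42 and 3.63 CPM in the libraries labelled knockout. Its groups were also far apart, with a log2 fold change of -2.37 (SE 0.18, Benjamini-Hochberg adjusted p = 4.54e-05, edgeR quasi-likelihood test). After OLR1 there was a step to the cadherin CDH4 at -0.99 and the hair keratin KRT81 at -0.93, also picked out afterwards. In this range of abundance 2 genes, OLR1 and SERPINB2, were at least 2-fold lower, and 4 were at least 2-fold higher.

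The fall of OLR1 was large but its replicates were not unusually close. Its within-group SD on the log2 scale was 0.179, compared with a median of 0.124 over the 4096 genes, and 81.3% of them had a smaller one. Divided by that SD, the difference of OLR1 came to 9.06, and 10 genes of similar abundance had a larger ratio. Groups without overlap, as OLR1 has by selection, were seen in 914 of these genes (22.3%), close to the 23.3% over all 14860 loci.

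**Figure D2:**
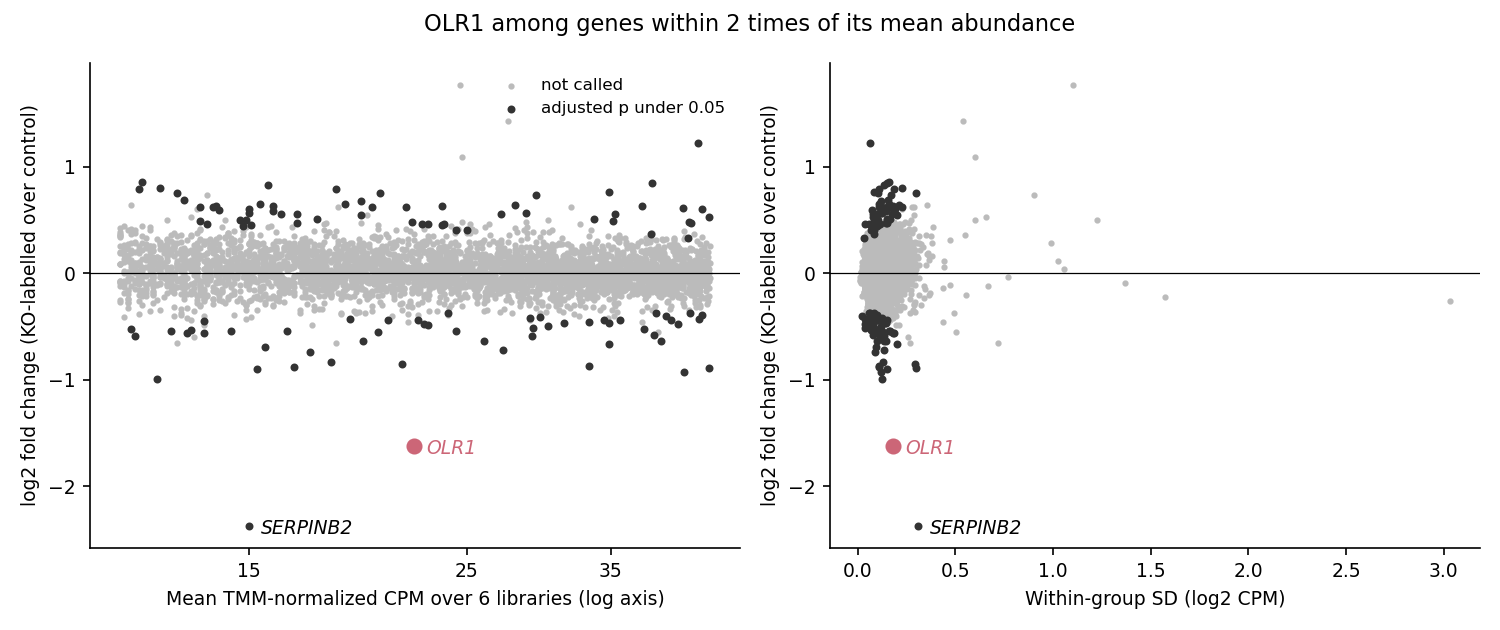
Log2 fold change of 4096 genes within 2 times of the mean abundance of OLR1, against mean TMM-normalized CPM (left, log axis) and against the within-group SD of log2 CPM (right); dark points had an adjusted p under 0.05 in edgeR. OLR1 (red, -1.62) and SERPINB2 (-2.37) lie below all other genes, and the SD of OLR1, 0.179, is larger than that of 81.3% of the genes.

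Over all loci, 373 of 14860 (2.51%) had a Benjamini-Hochberg adjusted p under 0.05 in the edgeR quasi-likelihood test, 161 higher (1.08%) and 212 lower (1.43%) in the libraries labelled knockout. The counts rested heavily on single libraries. Without replicate 1 of the libraries labelled knockout they were 293 and 340, and without replicate 2 they were 66 and 96. Leaving out control replicate 1, 2 or 3 gave 83, 46 and 60 higher and 83, 67 and 81 lower, and leaving out replicate 3 of the libraries labelled knockout gave 102 higher. Of the called loci, 43.2% were higher, and with library size in place of TMM this was 54.4%. At an unadjusted p under 0.05 there were 2506 loci (16.9%), 1350 higher (9.08%) and 1156 lower (7.78%), which is the background for such counts in the lists given next. For the list counts by the other tools, DESeq2 called 256 higher and 379 lower over all loci, and limma-voom 102 and 153. Among genes of similar abundance to OLR1, 58 were called higher and 53 lower (2.71%).

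Of 19 other scavenger receptors listed, 11 were tested, 1 rose and none was called lower. By edgeR 6 of the 11 had an unadjusted p under 0.05, 2 higher and 4 lower, while DESeq2 called 1 higher and 1 lower, and limma-voom 1 higher and 0 lower. The median log2 fold change of the list was -0.01, compared with 0.01 over all loci. The member that rose was SCARA3, a class A scavenger receptor linked to oxidative stress, with 32.9, 35.7 and 29.6 CPM in controls and 41.6, 56.6 and 52.5 CPM in the libraries labelled knockout. The groups did not overlap, and the log2 fold change was 0.62 (SE 0.12, Benjamini-Hochberg adjusted p = 0.0194, edgeR quasi-likelihood test). It passed in 1 of the 6 fits leaving out 1 library, the one without replicate 1 of the libraries labelled knockout, with adjusted p between 0.0501 and 0.100 in those without each of the others. SCARB2, the lysosomal member, was at 140 and 139 CPM, and SCARB1, the HDL receptor, at 61.5 and 47.9 CPM (log2 fold change -0.36, adjusted p = 0.0929, same test). SCARB1, CD163L1 and AGER were each lower in every library labelled knockout than in any control. Groups without overlap were seen in 23.3% of all loci. CD163L1 and AGER had log2 fold changes of -0.65 and -0.46, and were not called (adjusted p = 0.172 and 0.252, same test). Whether the change of any of them differs from that of OLR1 was not tested.

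Divided by the merged length of all annotated exons, OLR1 had the highest level of the 12 tested scavenger receptors in the control libraries and the sixth in the libraries labelled knockout. This order depends on that length, which is 3057 bases for OLR1 but 19388 for SCARB2 and 14887 for SCARB1, and shorter transcripts would raise the latter. Without division by length, SCARB2, SCARB1 and SCARF2 had more CPM in controls (140, 61.5 and 38.3) than OLR1 (33.3). Its level was 10.9 ± 0.849 CPM per kb in controls, compared with 10.7 ± 2.30 for SCARF2, a difference within their SDs, and 8.13 ± 0.759 for SCARA3 (n = 3 each). In the libraries labelled knockout, OLR1 was at 3.55 ± 0.536 CPM per kb, between CXCL16 at 4.27 ± 0.616 and SCARB1 at 3.22 ± 0.331, and the SD ranges of these neighbours overlapped. SCARF2 and SCARA3 then led at 13.2 ± 1.32 and 12.5 ± 1.93. The endocytic class A receptor MSR1 was low in both groups, at 0.158 and 0.130 CPM per kb. Averaged over the 6 libraries, the level of OLR1 per kb exceeded that of 58.7% of named tested genes, whose median was 5.19.

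Among receptors that take up native LDL and related lipoproteins, 15 of 18 genes were tested, none rose and 1 fell. At an unadjusted p under 0.05 in edgeR there were 1 higher and 2 lower, DESeq2 called 0 higher and 2 lower, and limma-voom 0 higher and 1 lower. The median log2 fold change was -0.10. LRP8, a receptor for apolipoprotein E and reelin, had 77.0, 75.2 and 82.1 CPM in controls and 56.2, 54.3 and 63.1 CPM in the libraries labelled knockout. These groups were separate, with a log2 fold change of -0.43 (SE 0.084, Benjamini-Hochberg adjusted p = 0.0200, edgeR quasi-likelihood test). The call was lost without any 1 of the 3 control libraries or without replicate 2 of the libraries labelled knockout (adjusted p 0.0673 to 0.103). LRP1 and the sorting receptor SORT1, the members with the highest CPM, had log2 fold changes of -0.15 and -0.05 (adjusted p = 0.662 and 0.824). LRP1 shares 59 exon bases with STAT6 on the opposite strand.

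The lectin-like receptors of the same gene complex were mostly near 0 counts. Of 25 listed, 21 were removed by the filter on low counts, and 15 of those had 0 counts in all 6 libraries, which allows up to 0.0151 CPM each over the 6 together. None of the 4 tested was called by edgeR, and neither an unadjusted p under 0.05 nor a call by DESeq2 or limma-voom was found among them (0 by each). CLEC2D, a ligand of a natural killer cell receptor, had 12.3, 13.2 and 12.7 CPM in controls and 14.9, 13.7 and 13.6 CPM in the libraries labelled knockout, and KLRG1 averaged 1.72 and 1.83 CPM. CLEC2D was slightly higher in each library labelled knockout, without passing the test (log2 fold change 0.14, Benjamini-Hochberg adjusted p = 0.506, edgeR quasi-likelihood test).

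Around OLR1 itself, none of the 40 nearest tested genes, 20 on each side, was called by edgeR. At an unadjusted p under 0.05 there were 3 higher and 3 lower, DESeq2 called 1 of these 40 higher and 0 lower, and limma-voom called 0. When the 20 nearest loci on each side were taken from the unfiltered table given to DESeq2, which includes loci without counts and so covers a shorter stretch, it called 0. Without replicate 1 of the libraries labelled knockout 1 of 40 was called, the complement protease C1R at a log2 fold change of 0.59 (Benjamini-Hochberg adjusted p = 0.0350, edgeR quasi-likelihood test). The median of the 40 was -0.04 and the range -0.65 to 0.52. TMEM52B, which overlaps OLR1 on the opposite strand, had 1.75, 1.16 and 1.39 CPM in controls and 0.820, 0.721 and 1.42 CPM in the libraries labelled knockout. Its groups overlapped (log2 fold change -0.52, SE 0.31, adjusted p = 0.427, same test). GABARAPL1, an autophagy gene 40319 bases beyond OLR1, was at 36.8, 31.1 and 34.7 CPM and at 31.1, 34.7 and 33.7 CPM (log2 fold change -0.05, adjusted p = 0.849). On the other side, CLEC7A had 2 counts over all 6 libraries, and CLEC9A had 0, as had KLRD1 beyond GABARAPL1.

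**Figure D3:**
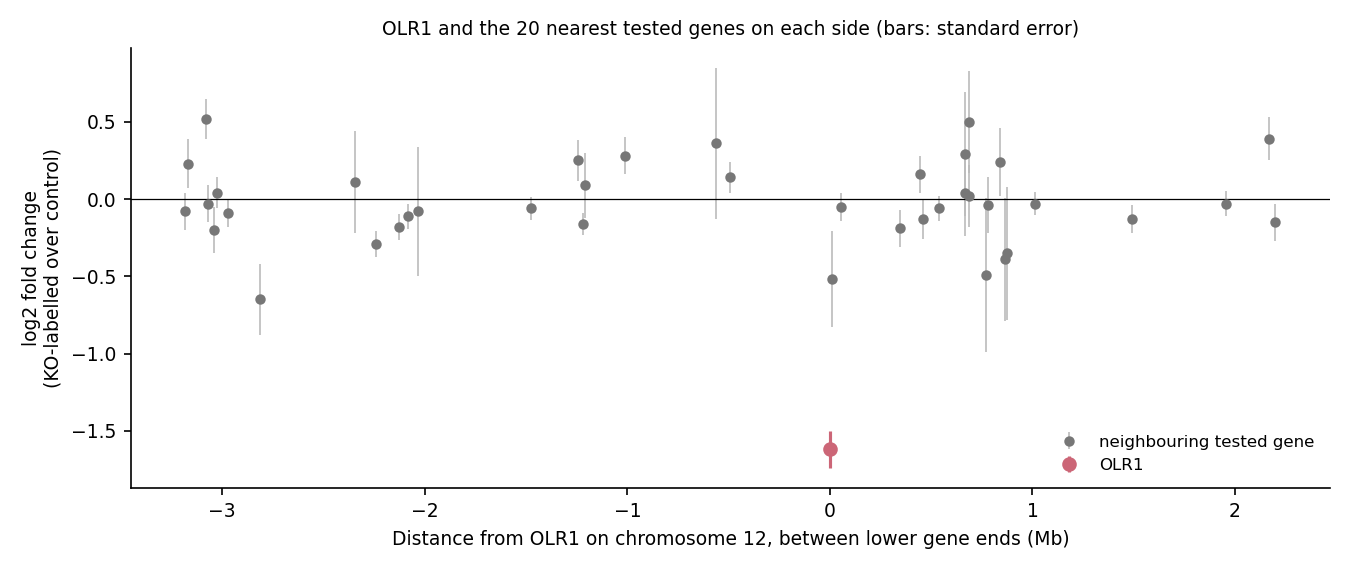
Log2 fold change (points) with standard error (bars) of OLR1 and of the 20 nearest tested genes on each side, against the distance from OLR1 in Mb measured between the lower gene ends. OLR1 is at -1.62, and the 40 neighbours lie between -0.65 and 0.52.

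Ligands and proteases of the receptor were examined next. Of 7 listed ligands 5 were tested and none was called by edgeR, with 1 lower at an unadjusted p under 0.05, 1 lower by DESeq2 and 0 by limma-voom. Fibronectin (FN1), the ligand with the highest CPM, averaged 4270 and 3270 CPM (log2 fold change -0.38, Benjamini-Hochberg adjusted p = 0.0547, edgeR quasi-likelihood test). The median of the ligands was -0.16. Of the 5 proteases able to shed the receptor, all were tested and BACE2, an aspartyl protease, fell. BACE2 had 58.1, 56.4 and 51.5 CPM in controls and 41.9, 42.1 and 44.7 CPM in the libraries labelled knockout. The groups were separate (log2 fold change -0.37, SE 0.082, adjusted p = 0.0397, same test), but the call held in 1 of 6 fits leaving out 1 library, the one without replicate 1 of the libraries labelled knockout (adjusted p 0.0522 to 0.174 without each of the others). It was also lost with library size in place of TMM (adjusted p = 0.0642, edgeR) and with limma-voom (adjusted p = 0.0538). At an unadjusted p under 0.05 in edgeR 1 protease was higher and 1 lower, DESeq2 called 0 higher and 1 lower, limma-voom called 0, and the median was 0.02.

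Cytokines and hormones that induce OLR1, with their receptors, gave no call by edgeR among 14 tested of 17, with 3 lower at an unadjusted p under 0.05 and 0 by DESeq2 or limma-voom, and a median of -0.14. All 18 transcription factors known for inducible expression were tested, of which 1 rose and 1 fell (median 0.08). At an unadjusted p under 0.05 in edgeR 2 were higher and 5 lower, DESeq2 called 1 higher and 1 lower, and limma-voom 0 higher and 1 lower. FOSL1, an AP-1 subunit, had 169, 170 and 151 CPM in controls and 115, 109 and 117 CPM in the libraries labelled knockout. Its groups did not overlap, and it fell by 0.52 on the log2 scale (SE 0.077, Benjamini-Hochberg adjusted p = 0.00505, edgeR quasi-likelihood test), with adjusted p at most 0.0423 whichever library was left out. ATF3, a stress-induced factor, averaged 52.3 ± 1.10 and 69.6 ± 7.86 CPM (SD, n = 3) and rose (log2 fold change 0.41, adjusted p = 0.0394, same edgeR test). Of the 6 fits leaving out 1 library, that call held in the one without replicate 1 of the libraries labelled knockout (adjusted p 0.109 to 0.174 without each of the others), and limma-voom gave an adjusted p of 0.0677. JUN and NFKB1, subunits of AP-1 and NF-kappaB, had log2 fold changes of 0.08 and -0.19 and were not called (adjusted p = 0.731 and 0.249, same edgeR test).

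Effectors downstream of the receptor gave no call by edgeR among 26 tested of 36, with 3 lower at an unadjusted p under 0.05 and 0 by DESeq2 or limma-voom, and a median of -0.09. The 3 lower ones were MMP3, PRKCB and CXCL1. Their log2 fold changes were -1.25, -0.56 and -0.48 (adjusted p = 0.141, 0.148 and 0.172, edgeR quasi-likelihood test). MMP3 was low, at 1.18 and 0.488 CPM. Of the 26, 10 had a log2 fold change above 0 and 16 below. The chemokine CXCL8 averaged 15.5 and 14.8 CPM, and VCAM1, an adhesion molecule, had 5 counts in all. Genes of cholesterol efflux and lipid storage gave no call by edgeR among 14 tested of 18, with 1 higher at an unadjusted p under 0.05 and 0 by DESeq2 or limma-voom, and a median of -0.11.

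The circadian clock was included because BMAL1 is the target. Of 18 genes 17 were tested, none rose and 4 fell, with a median of -0.12. BMAL1 itself, a core clock gene, was left out of this list as the target, and its call as higher is given above. At an unadjusted p under 0.05 in edgeR 2 were higher and 6 lower, and DESeq2 and limma-voom each called 0 higher and 4 lower. Over all loci those tools called 256 higher and 379 lower (DESeq2) and 102 higher and 153 lower (limma-voom). NR1D1, a nuclear receptor of the clock and a direct BMAL1 target, had 7.75, 7.11 and 6.86 CPM in controls and 3.07, 3.24 and 2.84 CPM in the libraries labelled knockout. The groups were well separated (log2 fold change -1.25, SE 0.14, Benjamini-Hochberg adjusted p = 0.00146, edgeR quasi-likelihood test). Its paralog NR1D2 averaged 68.2 ± 8.48 and 39.7 ± 2.26 CPM (SD, n = 3; log2 fold change -0.78, adjusted p = 0.00233, same edgeR test). PER3, a period gene, and TEF, a PAR bZIP factor, were lower by less (log2 fold changes -0.49 and -0.51, adjusted p = 0.0168 and 0.0368, same edgeR test). NR1D1 and NR1D2 passed in all 6 fits leaving out 1 library. PER3 was lost without any 1 control library or without replicate 2 of the libraries labelled knockout (adjusted p 0.0596 to 0.0867), and TEF in all but the fit without replicate 1 of that group (0.0688 to 0.143). The TEF call was also lost with library size in place of TMM (adjusted p = 0.0503, edgeR) and after thinning to equal depth (adjusted p = 0.0617, edgeR). NR1D1 shares 473 exon bases with THRA and PER3 shares 868 with UTS2, on the opposite strand, so that reads of each pair could be confused.

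Over the 10 lists together 129 of 181 genes were tested, of which 2 rose and 7 fell (6.98%), beside 2.51% over all loci. The clock list, included for BMAL1 rather than OLR1, held 4 of these calls among 17 tested (23.5%). The transcription factors held 2, the scavenger receptors, lipoprotein receptors and proteases 1 each, and the other lists none. The count of 9 was 16 without replicate 1 of the libraries labelled knockout, and 3 without replicate 2 of that group or any 1 control library. The calls over all loci moved in the same fits, to 293 higher and 340 lower in the first. In the others they were 46 to 83 higher and 67 to 96 lower. The median of the 129 was -0.08.

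**Figure D4:**
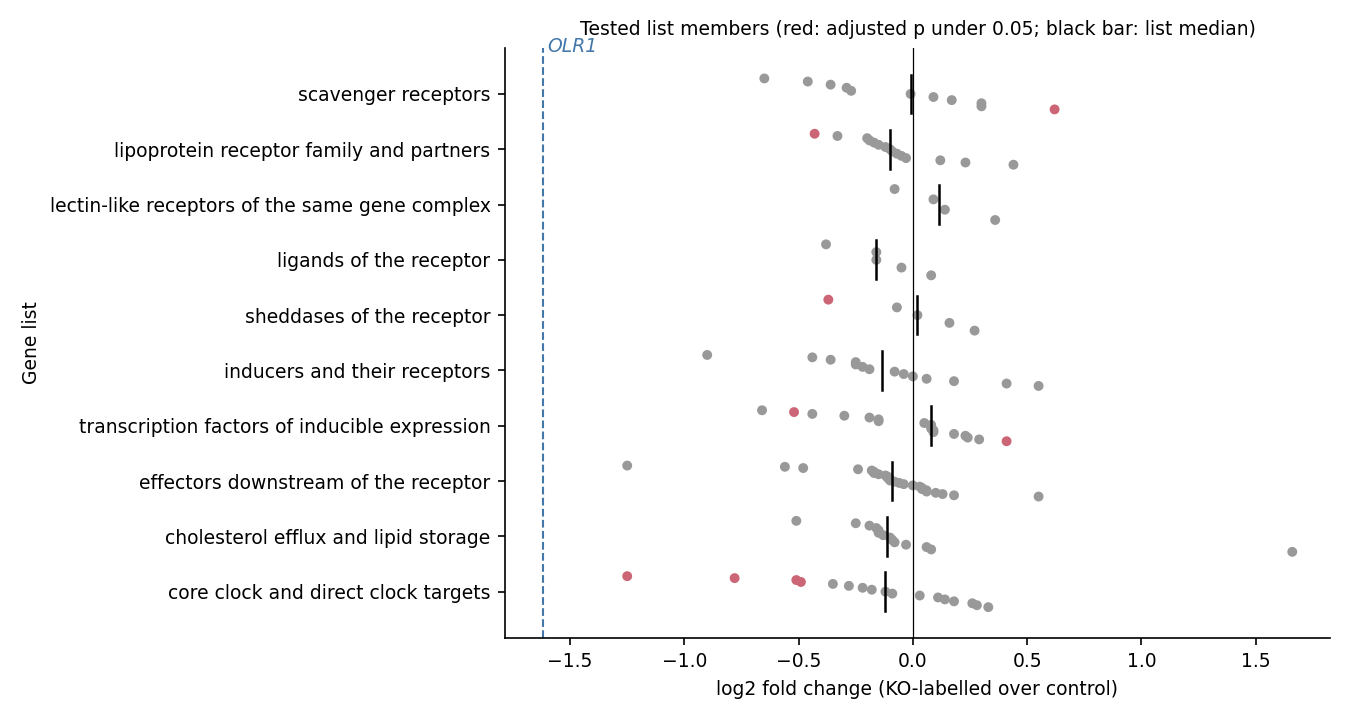
Log2 fold change of each tested member of the 10 lists (points; red, adjusted p under 0.05 in edgeR), with the list median (black bar) and OLR1 (dashed line, -1.62). The list medians lie between -0.16 and 0.12, and 9 of 129 genes are red.

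Markers of the cell types best known for OLR1 were examined in turn. The 7 endothelial markers summed to 2.98, 2.77 and 2.93 CPM in controls and 1.99, 1.87 and 2.44 CPM in the libraries labelled knockout. VWF had the highest value at 1.10 CPM, and the defining PECAM1 and CDH5 averaged 0.170 and 0.475 CPM in controls. This sum was lower in the libraries labelled knockout, as OLR1 was, its groups did not overlap, and its part in the result was not tested. The 8 macrophage and monocyte markers summed to 13.4, 14.2 and 12.0 CPM and to 12.4, 11.6 and 11.8 CPM, most of it CD68, a lysosomal protein, at 11.1 CPM, while the defining AIF1 and TYROBP had 0 counts in all 6 libraries. CD14 and ITGAM went the other way from CD68, averaging 0.413 and 0.354 CPM in controls and 0.835 and 0.762 CPM in the libraries labelled knockout, and were not called (adjusted p = 0.318 and 0.233, edgeR quasi-likelihood test). CSF1R had 18 counts, all in the libraries labelled knockout. Smooth muscle markers summed to 109, 101 and 108 CPM and to 117, 132 and 124 CPM, led by TAGLN at 111 CPM, and ACTA2 rose from 1.82 to 3.51 CPM (Benjamini-Hochberg adjusted p = 0.0188, edgeR quasi-likelihood test). The ACTA2 call was lost without any 1 control library or without replicate 2 of the libraries labelled knockout (adjusted p 0.0529 to 0.0785).

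Of the remaining markers, the 5 for fibroblasts summed to 903, 907 and 770 CPM and to 700, 913 and 966 CPM, nearly all COL1A1, while DCN and LUM had 0 counts. The 9 thyroid markers summed to 173, 173 and 201 CPM in controls and 130, 149 and 173 CPM in the libraries labelled knockout, so that the groups met at 173 CPM. The 6 epithelial markers summed to 2990, 3040 and 2900 CPM and to 2540, 2480 and 2560 CPM, lower in all 3 libraries labelled knockout. KRT18 fell by 0.50 on the log2 scale (adjusted p = 0.00583, same edgeR test), a call lost without control replicate 2 (adjusted p = 0.0524), and KRT8 had a log2 fold change of -0.28 (adjusted p = 0.0507). The other 4 had higher means in the libraries labelled knockout, among them KRT7 at 760 against 710 CPM and KRT19 at 8.97 against 7.67 CPM, and none of the 3 of them that were tested was called. The part of this in the difference of OLR1 was not tested.

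The genes whose pattern over the 6 libraries was most like that of OLR1 were found by the root mean square difference of centred log2 CPM, over 12478 other named genes averaging 1 CPM or more. They were chosen by likeness to a gene selected on the group difference, so their own differences are a description. The nearest was SMOC1, a secreted calcium-binding matrix protein, at 0.189 compared with a median of 0.835 over all candidates. SMOC1 had 2.35, 1.65 and 2.18 CPM in controls and 0.492, 0.524 and 0.632 CPM in the libraries labelled knockout. Next came ANPEP, a surface aminopeptidase, at 0.226, and PTPRC, the leukocyte phosphatase CD45, at 0.238. PTPRC had 6.41, 6.24 and 6.53 CPM in controls and 2.51, 1.97 and 2.60 CPM in the libraries labelled knockout. All 3 genes separated the groups as OLR1 did, at lower CPM.

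The clock gene NR1D1 and the neuronal kinesin KIF1A followed, both at 0.267. MTUS1, a microtubule-associated protein, was at 0.276, the sugar phosphate transporter SLC37A2 at 0.292 and OASL, an interferon-induced gene, at 0.299. OASL had the highest CPM of the 10, with 81.9, 86.5 and 75.8 CPM in controls and 37.0, 37.1 and 36.1 CPM in the libraries labelled knockout. CNIH3, an auxiliary protein of glutamate receptors, was at 0.322 and the acid-sensing channel ASIC3 at 0.324. MTUS1 shares 277 exon bases with PDGFRL and CNIH3 shares 138 with WDR26, each on the opposite strand.

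**Figure D5:**
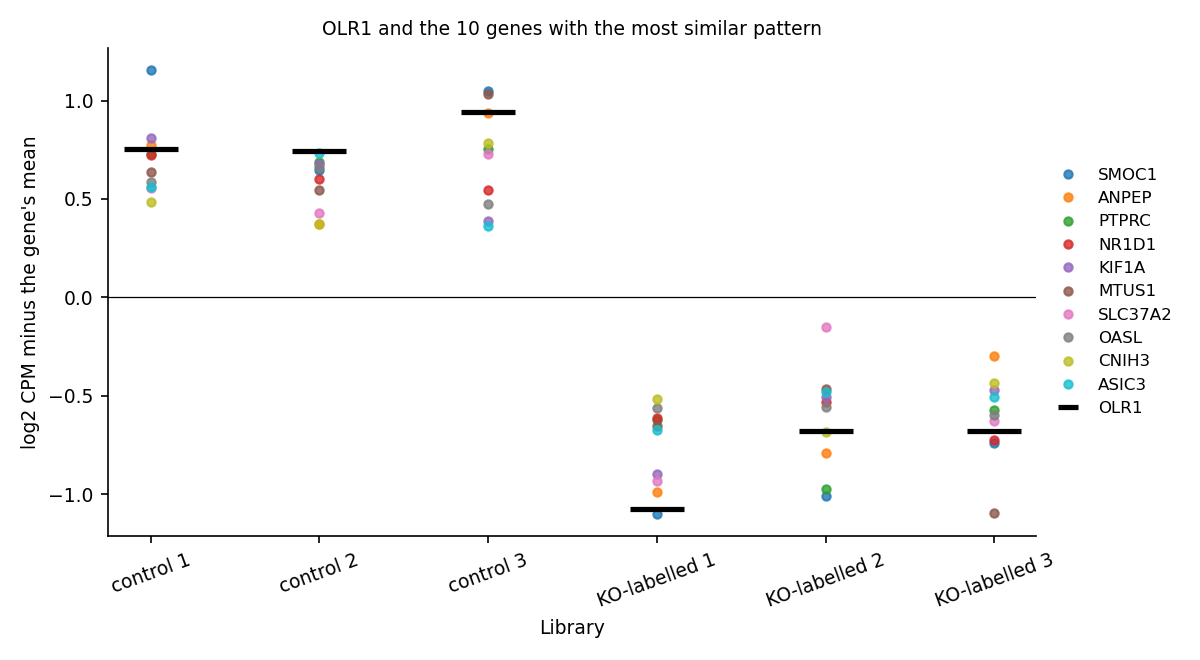
Log2 TMM-normalized CPM of OLR1 (black bars) and of the 10 genes with the most similar pattern (points), each minus its own mean over the 6 libraries. No prior count was added for the plot, unlike in the measure of likeness. All 11 genes lie above their mean in the 3 control libraries and below it in the 3 libraries labelled BMAL1 knockout.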

How the data were processed

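The authors deposited raw counts per locus for 6 libraries sequenced with paired ends. The submitters' processing notes name fastp 0.20.1, HISAT2 2.0.4 and hg38. Of 22354 loci, 20018 matched a GENCODE v44 gene, 2310 were assembled loci and 26 had identifiers that were not matched. In R 4.3.3, edgeR 4.0.16 fitted the groups without covariates (default filter on low counts, TMM scaling, robust quasi-likelihood test, 2-sided), with Benjamini-Hochberg adjustment over the 14860 loci kept. The fit was tested on simulated data. Log2 CPM used a prior count of 2, except in the plot of the 10 genes most alike, which used none. Named genes were OLR1, BMAL1, list members with an adjusted p under 0.05 and a mean of at least 1 CPM, the 2 scavenger, lipoprotein receptor and lectin-like genes of highest CPM, the nearest tested gene on each side, and the 10 genes most alike. Others were named after their values were seen. OLR1 and the lists were chosen with earlier results of these data known. Alternatives were other scalings and filters, a replicate block, thinning to equal depth, each library left out, DESeq2 1.42.0 and limma-voom (limma 3.58.1). Some genes of the lists are not reported here.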

Additional observations from a re-analysis of the deposited data

How the results depend on the processing

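The log2 fold change of OLR1 stayed between -1.69 and -1.50 over 14 alternatives. Its rank among genes of similar abundance was 4 within 4 times of its mean and 2 to 3 with 1 library left out. The counts of called genes were less stable. DESeq2 called 256 higher and 379 lower, and limma-voom 102 higher and 153 lower. Leaving out 1 library gave 46 to 293 higher and 67 to 340 lower. Called list genes numbered 3 to 16, and called neighbours 0 to 1, with 1 library left out. Among single genes, 5 values changed sign, none of them called: SCARB2 at 0.01 with library size only and 0.02 without control replicate 3 (-0.04 to 0.02 with 1 library left out), LRP1 at 0.03 without labelled knockout replicate 1 (-0.27 to 0.03), and SORT1 at 0.03 without labelled knockout replicate 1 and 0.02 without control replicate 3 (-0.12 to 0.03). The cause was not tested. Of the other values for named genes, 312 kept their side of the threshold, 46 lost a call and 1 gained one. With a replicate block 132 were higher, 145 lower and OLR1 was at -1.63. BACE2, ATF3 and TEF then had adjusted p of 0.0999, 0.0739 and 0.0739 in edgeR. No shared deviation of same-numbered libraries was seen (correlations -0.090, -0.052 and -0.005). With so few libraries per group, this cannot show whether they were prepared in matched sets.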
